A study of Parachlorella kessleri with 6 samples.

Results

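Chlorophyll and heme are made from the same precursor, protoporphyrin IX. Magnesium chelatase, built from the subunits ChlH, ChlI and ChlD, inserts magnesium and sends protoporphyrin towards chlorophyll, whereas ferrochelatase inserts iron and makes heme. ChlH is the large subunit that holds the porphyrin, and ChlI and ChlD are related AAA+ type proteins that drive the insertion with ATP. Further along the magnesium branch, light-dependent protochlorophyllide reductase (POR) uses light to reduce protochlorophyllide, and chlorophyll synthase (ChlG) attaches the phytol-type tail in the last step. In the single-celled green alga Parachlorella kessleri, the transcripts of 7 such genes were examined: ChlH, a second row named magnesium chelatase subunit H (called second H here), ChlI, ChlD, POR, ChlG and ferrochelatase. They were chosen by identifier from the 22972 assembled genes of an RNA-seq table.

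The salt group was 3 libraries of cells kept under salt stress, and the control group 3 libraries of cells kept under control conditions. The series design calls both 2-day cells, and whether this counts days of salt is not stated. The salt concentration, light regime, medium and strain were not given in the sources used here, and whether the replicates were separate cultures is not stated, so the p-values speak only to the spread among these libraries, possibly a technical one. In a bulk culture, more transcript per cell and more cells carrying a transcript cannot be told apart. The question was how the enzymes at the branch of the pathway differed between the groups.

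Library totals were 19849594 to 21654407 counts in salt and 16460455 to 24065705 in control, so that 1 count was worth 0.0435 to 0.0629 CPM (counts relative to library size, scaled by TMM factors). The first principal component of log2 CPM held 83.0% of the variance and divided the groups. The second held 10.4% and had salt replicate 1 at 19.6 and control replicate 1 at 52.7, with the rest from -29.0 to -7.34. No label names a batch. For the 7 genes every library is therefore given singly below.

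Gene names come from the best protein matches listed in the deposited table and function was not tested. ChlH (TRINITY_DN5006_c0_g1) matched a Volvox carteri magnesium protoporphyrin chelatase, ChlD (TRINITY_DN4693_c0_g1) a Chlamydomonas reinhardtii subunit D, and ChlI (TRINITY_DN5729_c1_g3), ChlG (TRINITY_DN5558_c3_g5) and second H (TRINITY_DN5079_c0_g1) matched predicted proteins of Chlorella variabilis. The closest curated protein to second H was a subunit H of the green sulfur bacterium Chlorobaculum parvum, while that of ChlH was a chloroplast ChlH. POR (TRINITY_DN5836_c0_g4) and ferrochelatase (TRINITY_DN5896_c2_g2) had no match of this kind listed and carry names from other annotation fields of the table.

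The listed Pfam domains fitted the names for 6 of the 7 genes, and none was listed for ChlI. The CobN/magnesium chelatase domain lay at residues 264 to 1069 of 1 ChlH protein model, with shorter parts on other models. For second H it was listed only in parts, the first at residues 403 to 710 and the rest on 2 other models. Ferrochelatase had its own domain at residues 149 to 471, ChlG a UbiA prenyltransferase domain at residues 24 to 270, and POR a short-chain dehydrogenase domain at residues 84 to 230. ChlD had a magnesium chelatase domain at residues 92 to 274 and a von Willebrand factor type A domain at residues 565 to 684. The ChlD row also held a second protein model, so its counts may include those of another gene. No gene sequence was available to print.

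In salt, 5 of the 6 magnesium branch genes and ferrochelatase moved in opposite directions. ChlH, ChlI, ChlD, POR and ChlG rose by 3.67-fold (ChlD) to 12.3-fold (ChlH), while ferrochelatase and second H fell to 0.638-fold and 0.640-fold of control. With edgeR's quasi-likelihood test across 11438 genes, 57.8% of all genes were called at an adjusted p under 0.05. Raised genes made up 29.1% and lowered genes 28.7% of those tested. Of the 7 genes described here, 5 were raised and 2 lowered. The 5 raised genes also changed by at least 2-fold, as did 15.9% of all genes tested, whereas neither lowered gene reached a 2-fold fall, which 17.7% of all genes did. The salt and control libraries did not overlap for any of the 7, and among all genes tested every salt library lay above every control library in 34.1% and below in 32.6%.

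ChlH had the largest rise of the 7. It held 1152, 924 and 1074 CPM in salt replicates 1, 2 and 3, against 107, 66.4 and 82.6 CPM in control replicates 1, 2 and 3. The lowest salt library was 8.67-fold above the highest control library. The log2 fold change was 3.62 (SE 0.22, edgeR adjusted p = 4.19e-05), and 1.78% of all genes tested had a larger one.

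ChlI had 89.2, 62.7 and 80.3 CPM in salt and 13.1, 9.75 and 9.19 CPM in control. Its counts ran from 1359 to 1965 in salt and from 146 to 274 in control. The groups were 4.77-fold apart at their nearest libraries, and the log2 fold change was 2.85 (SE 0.21, adjusted p = 7.55e-05, edgeR).

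ChlD rose least of the 3 chelatase subunits. It had 166, 152 and 184 CPM in salt and 51.7, 39.6 and 45.4 CPM in control, which is 1.88 on the log2 scale (SE 0.14, edgeR adjusted p = 8.35e-05). Replicates within each group lay close together, and the nearest libraries of the groups were 2.94-fold apart.

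**Figure D1:**
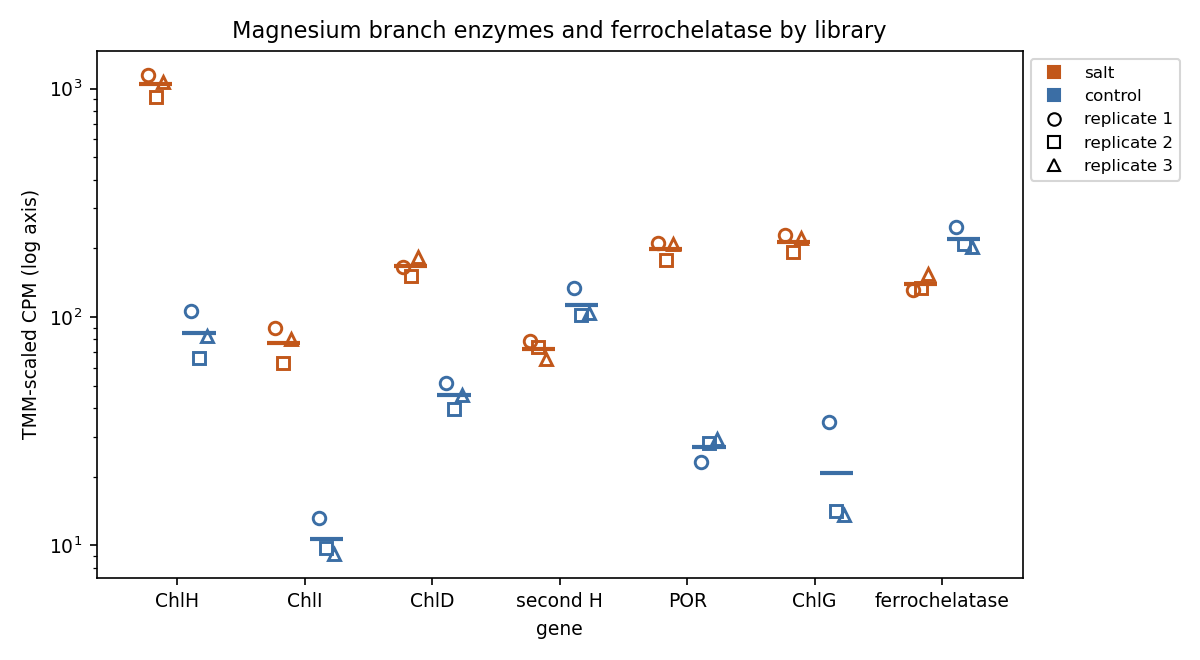
TMM-scaled CPM (log axis) of the 7 genes in each library; symbols are replicates, orange salt and blue control, and lines are group means. The 5 raised genes have every salt library above every control library, ChlH from 924 to 1152 CPM in salt, while second H and ferrochelatase have every salt library below every control library.

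The balance among the chelatase subunits therefore differed between the groups. Counts of ChlH per count of ChlD were 6.92, 6.09 and 5.85 in salt and 2.06, 1.68 and 1.82 in control. Per count of ChlI they were 12.9, 14.7 and 13.4 in salt and 8.12, 6.82 and 8.99 in control. ChlI per count of ChlD was 0.536, 0.413 and 0.437 in salt and 0.254, 0.246 and 0.202 in control. None of these count ratios overlapped between the groups. How often ratios of other gene pairs overlap was not counted. Single genes often did not overlap, with every salt library above every control library in 34.1% of genes tested and below in 32.6%. In FPKM (introduced below) ChlH per ChlI did overlap, at 5.33, 5.998 and 5.46 in salt and 3.33, 7.73 and 3.73 in control. Count ratios do not depend on library size, and they are descriptions without a test. They use the ChlH row alone. All rows named subunit H, summed, rose by 2.33 on the log2 scale, less than ChlI (2.85) and more than ChlD (1.88). Whether subunit H gained on ChlI thus depends on which of its rows are counted.

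Second H behaved differently from the gene named ChlH. It had 78.4, 73.6 and 65.2 CPM in salt and 133, 102 and 104 CPM in control, a change of -0.64 on the log2 scale (SE 0.14, edgeR adjusted p = 0.00776). The groups did not overlap, and the lowest control library was 1.30-fold above the highest salt library. A neighbouring row of the same Trinity cluster, TRINITY_DN5079_c0_g2, carries the same enzyme name and its subunit H domain at the same residues, 403 to 710. It had 18.6 ± 1.29 CPM in salt and 28.4 ± 4.38 CPM in control (SD, n = 3 each), or -0.61 on the log2 scale (SE 0.15, edgeR adjusted p = 0.0129), and its call was lost without salt replicate 3 (adjusted p = 0.0525). These rows may be copies or variants of 1 gene between which reads were divided, so their separate levels are uncertain.

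In salt there were 14.7, 12.6 and 16.5 counts of ChlH per count of second H, against 0.799, 0.651 and 0.794 in control. When all rows named subunit H were summed, the total rose by 2.33 on the log2 scale (SE 0.18, edgeR adjusted p = 9.4e-05).

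POR, the step that requires light, had 210, 178 and 209 CPM in salt and 23.2, 28.1 and 29.4 CPM in control. The salt libraries lay 6.07-fold or more above every control library, and control replicate 1 was the lowest of the controls. The log2 fold change was 2.89 (SE 0.14, adjusted p = 2.43e-05, edgeR), with 3.18 between the libraries numbered replicate 1. Another row of this name, TRINITY_DN5836_c0_g9, has the same domains at the same residues. Counts of POR per count of this row were 1.01, 0.975 and 0.995 in salt and 0.962, 0.911 and 0.936 in control. Reads of the pair could have been divided between the rows, so the level of either alone is uncertain, but summed, with 1 further matched row at near 0 counts, they rose by 2.84 on the log2 scale (SE 0.15, edgeR adjusted p = 2.65e-05).

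Light-independent protochlorophyllide reductase catalyses the same reduction in the dark and is encoded in the plastid of many green algae. Its subunit L (TRINITY_DN1502_c0_g1) held 1, 0 and 6 counts in salt and 0, 0 and 0 in control, and subunit B (TRINITY_DN6338_c0_g1) held 1, 2 and 3 in salt and 0, 0 and 0 in control. At 0 counts the limit is 3 counts in a library, for counting error only. Neither row passed the filter on low counts, and at this depth no difference could be tested.

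ChlG, the last enzyme of the branch, had 229, 193 and 222 CPM in salt and 34.7, 14.1 and 13.5 CPM in control. Control replicate 1 stood above the other controls, but the lowest salt library was still 5.55-fold above it. The log2 fold change was 3.36 (SE 0.39, edgeR adjusted p = 0.000442). Without control replicate 1 it was 3.96 (SE 0.12, edgeR adjusted p = 1.1e-05). Between the libraries numbered replicate 1 it was 2.72.

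Ferrochelatase was the only gene of the 7 at the entry to heme. It had 132, 134 and 155 CPM in salt and 249, 209 and 202 CPM in control. Every salt library was below every control library, the nearest by 1.30-fold, and control replicate 1 was the highest. The log2 fold change was -0.65 (SE 0.13, edgeR adjusted p = 0.00487), a fall of 36.2%. By library totals without TMM factors, where the median log2 fold change of all genes moved up by 0.18, ferrochelatase had -0.46 (edgeR adjusted p = 0.0152) and second H -0.45 (edgeR adjusted p = 0.0126). In that scaling 60.5% of all calls were raised, against 50.3% with TMM.

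The log2 ratio of a raised gene to ferrochelatase combines a rise with a fall, so by arithmetic it differs by more than either change alone. It compares single genes and not whole branches. Counts of ChlH per count of ferrochelatase were 8.75, 6.91 and 6.93 in salt and 0.429, 0.319 and 0.409 in control. The log2 ratio was thus 2.90 ± 0.20 in salt and -1.39 ± 0.23 in control (SD, n = 3 each), a difference of 4.29. ChlG per ferrochelatase was 1.74, 1.44 and 1.43 in salt and 0.139, 0.0676 and 0.0670 in control, a difference of 4.16. The differences in the log2 ratio were 3.54 for POR, 3.51 for ChlI and 2.53 for ChlD. The salt and control ratios of these 5 genes did not overlap, but this was fixed in advance. Each raised gene had every salt library above every control library, and ferrochelatase had every salt library below.

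Second H was the exception. Its ratio to ferrochelatase was 0.596, 0.551 and 0.421 in salt and 0.537, 0.489 and 0.515 in control. These values overlapped, and the log2 difference of 0.01 was far smaller than the SD of 0.26 among the salt libraries. Because the 7 genes were chosen with earlier results known, no p-value is given for any ratio.

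**Figure D2:**
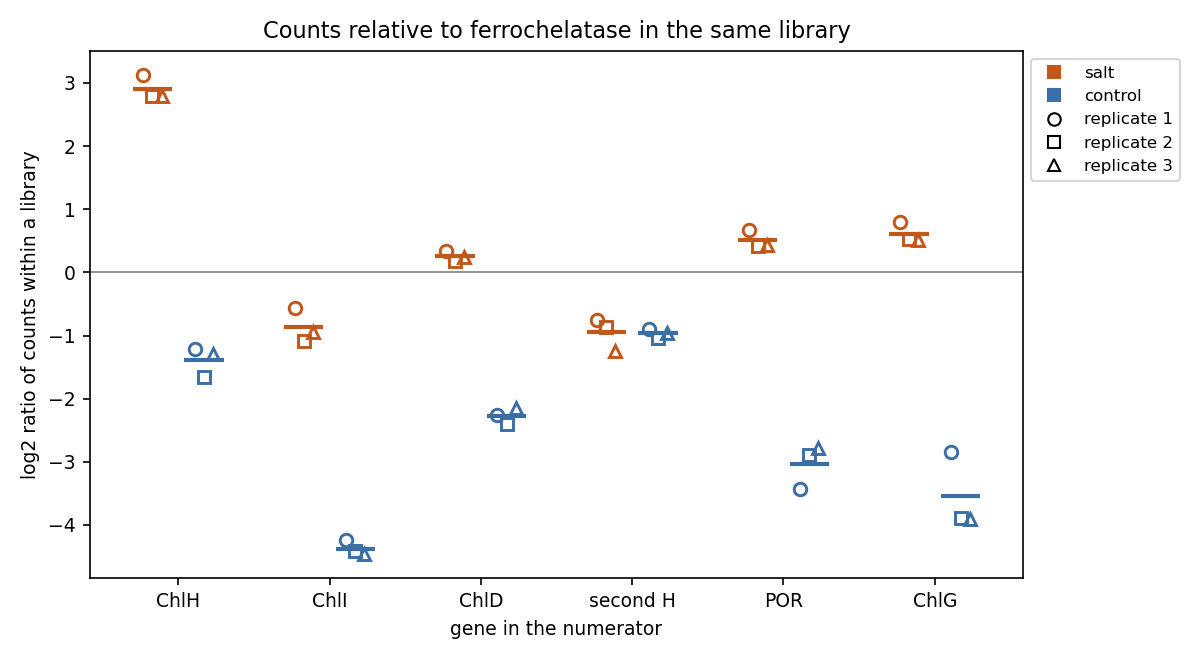
Log2 ratio of counts of each magnesium branch gene to ferrochelatase within the same library; orange salt, blue control, symbols are replicates and lines group means. For ChlH, ChlI, ChlD, POR and ChlG all salt ratios lie above all control ratios, ChlH at 2.90 on average in salt and -1.39 in control, while second H overlaps.

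Levels of different genes were compared with the deposited FPKM values (a level per transcript length and library size). In salt, ChlH was highest with 241, 182 and 219 FPKM in replicates 1, 2 and 3, and ChlG next with 138, 111 and 133 FPKM. Then came ferrochelatase (54.6 ± 5.52 FPKM), POR (53.4 ± 5.86), ChlD (44.0 ± 4.66) and ChlI (38.6 ± 7.56), of which each overlapped its neighbour in this order (SD, n = 3 each). Second H was lowest at 18.3 ± 3.23 FPKM.

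In control the order began with ferrochelatase, at 85.2, 86.0 and 79.9 FPKM and above every other gene of the 7 in every control library. Second H (26.1 ± 2.05 FPKM) and ChlH (19.0, 39.6 and 16.9 FPKM in replicates 1, 2 and 3) followed and overlapped each other. ChlD (15.0 ± 2.33), ChlG (11.6 ± 5.49) and POR (7.83 ± 1.67) overlapped their neighbours, and ChlI was lowest at 5.12 ± 0.597 FPKM without overlap. By single rows, ferrochelatase was thus first of the 7 per length in control and behind ChlH and ChlG in salt. The further POR row, TRINITY_DN5836_c0_g9, had 54.2 ± 5.51 FPKM in salt and 8.68 ± 1.93 FPKM in control (SD, n = 3 each). As reads may have been divided between the POR rows, the place of POR beside ferrochelatase in salt is uncertain. ChlH per ferrochelatase in FPKM was 4.62, 3.59 and 3.60 in salt and 0.223, 0.460 and 0.211 in control.

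**Figure D3:**
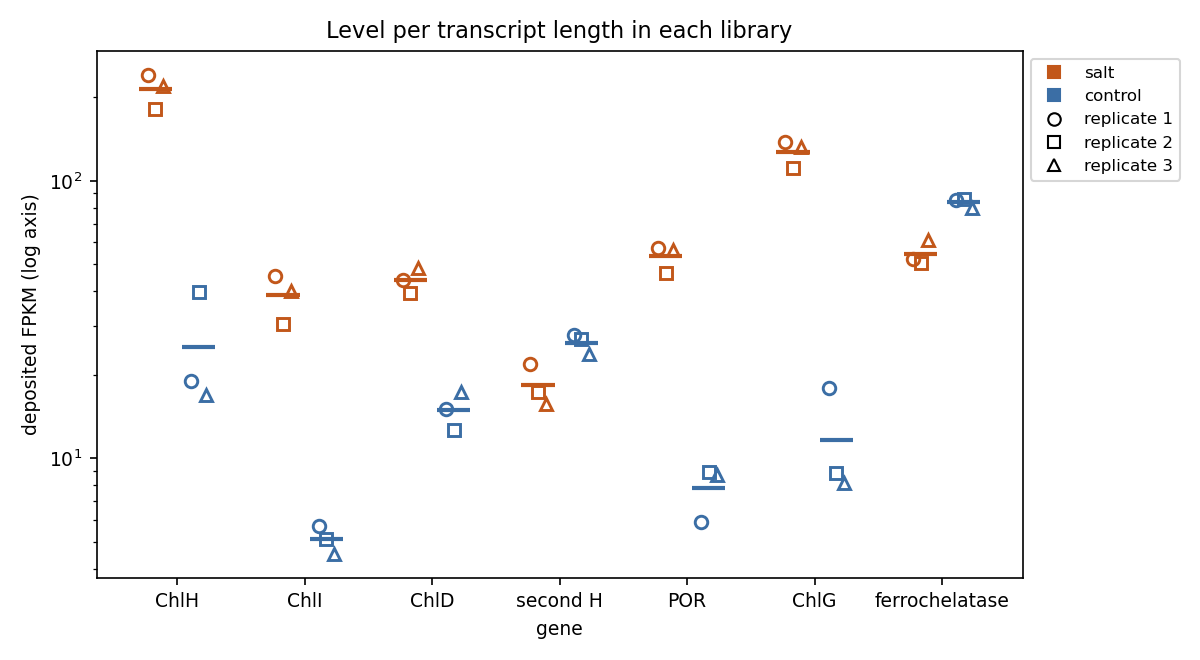
Deposited FPKM (log axis) of the 7 genes in each library, a level per transcript length; orange salt, blue control, symbols are replicates and lines group means. Ferrochelatase is the highest of the 7 in control (79.9 to 86.0 FPKM), whereas ChlH is the highest in salt (182 to 241 FPKM); ChlH in control replicate 2 lies above its other controls.

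The FPKM of ChlH in control replicate 2 (39.6) was more than that of control replicate 3 (16.9), although their counts were 1329 and 1312. The transcript length implied by count and FPKM, adjusted for the median shift of each library, differed in the same library. It was 4887 to 5004 bases for ChlH in the salt libraries and 4920 and 5007 bases in control replicates 1 and 3, but 1798 bases in control replicate 2. The ChlH row holds 4 protein models with a listed domain. What set the length in that library was not tested. Of 9212 genes with at least 50 counts in every library, 2.54% had implied lengths that differed 2-fold or more between libraries, and the median gene's differed 1.06-fold.

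ChlI, ChlG and ferrochelatase had nearly the same implied length in all libraries, within 1.03-fold. For ChlD it was 3880, 3804 and 3856 bases in salt and 3021, 3369 and 2693 bases in control. For POR it was 3763, 3772 and 3777 bases in salt and 3442, 3385 and 3459 bases in control, without overlap in either gene. Second H had 3663, 4197 and 4248 bases in salt and 4229, 4075 and 4472 bases in control, which overlapped. The transcripts behind these rows were not analysed here. Fold changes by count and by FPKM differ wherever the implied length differs. The authors' deposited table gives a log2 fold change of 3.08 for ChlH and 1.57 for ChlD, which are 0.54 and 0.31 lower than those from counts. With mean FPKM values plus 0.1, ChlH had 3.09, and 3.57 without control replicate 2. For the other 5 genes the authors' deposited table gives 2.88 (ChlI), 2.79 (POR), 3.37 (ChlG), -0.52 (second H) and -0.62 (ferrochelatase), all within 0.13 of the count-based values. That table marks the 5 raised genes as significant. It does not mark second H and ferrochelatase, for which the authors' deposited table lists an FDR of 0.0103 and 0.0142.

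**Figure D4:**
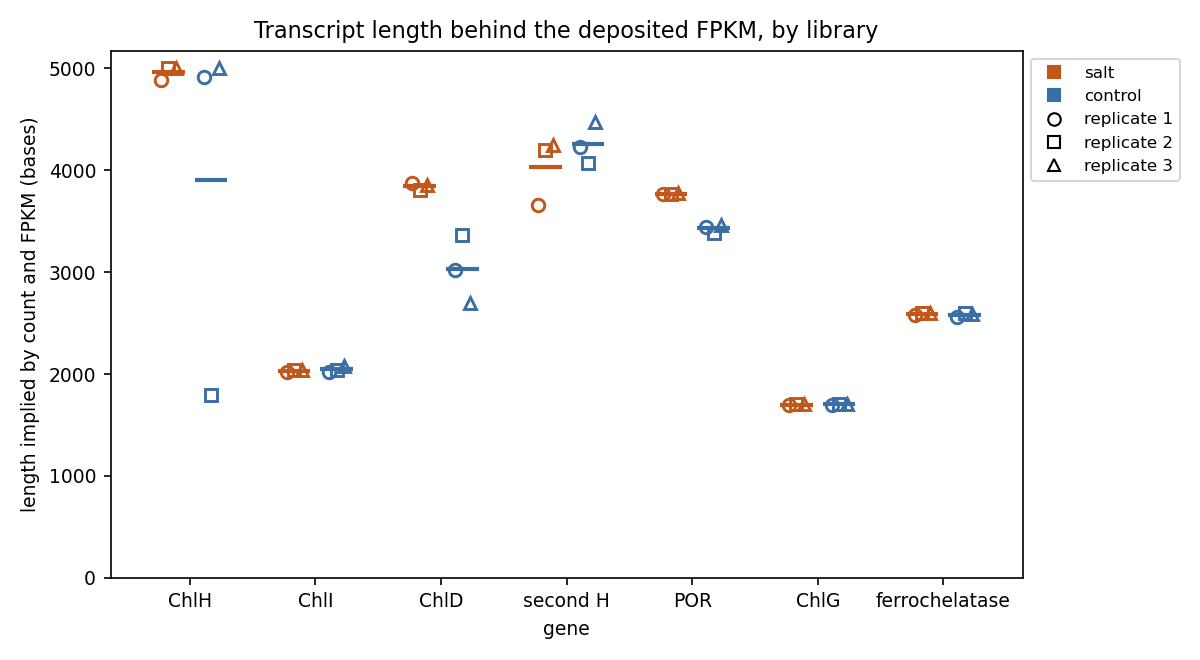
Transcript length in bases implied by the count and the FPKM of each gene in each library, adjusted for the median shift of the library; orange salt, blue control, symbols are replicates and lines group means. ChlH lies between 4887 and 5007 bases in 5 libraries and at 1798 in control replicate 2. ChlD and POR are longer in salt, and ChlI, ChlG and ferrochelatase are level. Second H varies from 3663 to 4472 bases, and its groups overlap.

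The other enzymes of the magnesium branch were taken from word patterns in the descriptions. Of 13 further rows, 11 were tested, of which 10 were raised, 1 was lowered and none was left uncalled by edgeR. Their median log2 fold change was 1.21, against 0.01 over all 11438 genes tested, of which 29.1% were raised and 28.7% lowered. The row with the smallest p was the second POR row described above, and the lowered one was the further subunit H row. Geranylgeranyl reductase (TRINITY_DN3262_c0_g1), which makes the phytyl tail that ChlG attaches, had the highest mean CPM, with 991 ± 136 CPM in salt (SD, n = 3) and 262, 137 and 143 CPM in control replicates 1, 2 and 3. Its log2 fold change was 2.45 (SE 0.29, edgeR adjusted p = 0.000459).

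The rows of the remaining steps are named to complete the pathway, after their values were seen. Magnesium protoporphyrin methyltransferase (TRINITY_DN5415_c7_g1), which acts directly after the chelatase, had 182 ± 1.97 CPM in salt and 112 ± 13.6 CPM in control (SD, n = 3 each; 0.70 on the log2 scale, SE 0.12, edgeR adjusted p = 0.00232). The rows named for the cyclase that follows, TRINITY_DN5083_c10_g3 and TRINITY_DN5083_c10_g6, had 1.06 (SE 0.17) and 1.08 (SE 0.28). Divinyl chlorophyllide reductase (TRINITY_DN4227_c0_g5) had 2.09 (SE 0.23). GUN4 (TRINITY_DN4674_c0_g3), a porphyrin-binding protein that stimulates magnesium chelatase, had 152 ± 11.5 CPM in salt (SD, n = 3) and 34.6, 81.6 and 80.1 CPM in control (1.21 on the log2 scale, SE 0.31, edgeR adjusted p = 0.0136). Chlorophyllide a oxygenase, which makes chlorophyll b, had a row raised by 1.26 (TRINITY_DN4230_c0_g1, SE 0.13). A second such row had 1.09 (TRINITY_DN5460_c3_g1, SE 0.31, edgeR adjusted p = 0.0192), whose call was lost without salt replicate 2 (adjusted p = 0.0654), control replicate 2 (0.0615) or control replicate 3 (0.0675). The remaining row, named protochlorophyllide-dependent translocon component (TRINITY_DN4876_c3_g2), is a relative of pheophorbide a oxygenase and no step of this branch, and it rose by 1.36 (SE 0.15).

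**Figure D5:**
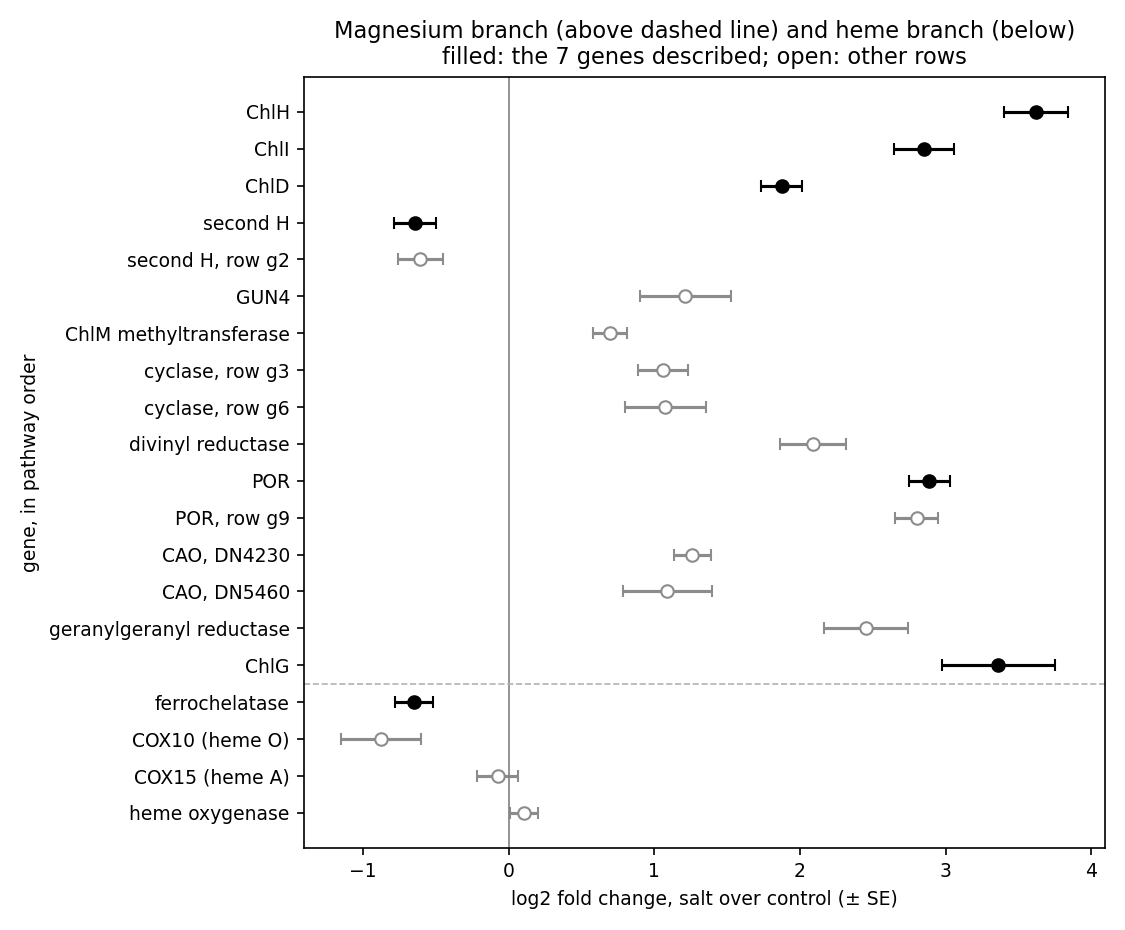
Log2 fold change of salt over control with SE for rows of the magnesium branch in pathway order and, below the dashed line, for ferrochelatase and other heme genes; filled points are the 7 genes described and open points other rows. Rows of the magnesium branch lie to the right of 0 except second H (-0.64) and its neighbouring row (-0.61), and ferrochelatase lies at -0.65.

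Other genes of heme, bilin and siroheme metabolism were 8 rows beside ferrochelatase. Of these 6 were tested, 1 was raised, 1 was lowered and 4 were not called, against 29.1% raised and 28.7% lowered over all genes. Their median log2 fold change was -0.01. Heme oxygenase (TRINITY_DN4694_c2_g2), which opens the heme ring, had 231 ± 9.18 CPM in salt and 215 ± 1.72 CPM in control (SD, n = 3 each; 0.11 on the log2 scale, SE 0.10, edgeR adjusted p = 0.389). COX15 (TRINITY_DN4410_c1_g3), which makes heme A for cytochrome oxidase, had 550.1 ± 29.5 CPM in salt and 579 ± 75.8 CPM in control (-0.07, SE 0.14). COX10 (TRINITY_DN4568_c2_g2), which acts before it by converting protoheme to heme O, was lowered (-0.88, SE 0.28, edgeR adjusted p = 0.0307). That call was lost by library totals (adjusted p = 0.0554), with replicates 2 and 3 alone (0.117), and without control replicate 1 (0.0664), salt replicate 1 (0.0849) or salt replicate 3 (0.0925). Siroheme synthase, which leads to the cofactor of nitrite and sulfite reductases, had a row that rose (TRINITY_DN3166_c0_g3; 0.86, SE 0.21, edgeR adjusted p = 0.0106). A further row (TRINITY_DN5994_c12_g4) had -0.39 (SE 0.16, edgeR adjusted p = 0.0785) and was called lowered without control replicate 1 (adjusted p = 0.0398). Sirohydrochlorin ferrochelatase (TRINITY_DN5362_c1_g4), which inserts iron into sirohydrochlorin to make siroheme, had 0.06 (SE 0.12, edgeR adjusted p = 0.669).

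Proteins that carry heme, and others that share such words in their names, formed a list of 41 rows. Of these 26 were tested, with 9 raised, 7 lowered and 10 not called, shares near the 29.1% raised and 28.7% lowered over all genes. Their median log2 fold change was 0.09. A catalase (TRINITY_DN5788_c1_g5), which breaks down hydrogen peroxide, rose most, with 849 ± 213 CPM in salt (SD, n = 3) and 138, 21.8 and 21.3 CPM in control (3.81, SE 0.81, edgeR adjusted p = 0.00597). Without control replicate 1 it had 5.31. Another catalase row of the same Trinity cluster (TRINITY_DN5788_c1_g4), given after its values were seen, was not called. It had 521 ± 68.9 CPM in salt (SD, n = 3) and 1136, 602 and 630 CPM in control (-0.60, SE 0.27, edgeR adjusted p = 0.0953). An ascorbate peroxidase (TRINITY_DN4216_c0_g1), of the enzymes that remove peroxide with ascorbate, had the smallest p and fell by 1.37 on the log2 scale (SE 0.11). The row with the highest mean CPM, cytochrome c peroxidase (TRINITY_DN5727_c0_g2), had -0.64 (SE 0.15, edgeR adjusted p = 0.0104; 0.0516 without salt replicate 3).

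Upstream of the branch, the genes from glutamyl-tRNA reductase to protoporphyrin had 12 raised, 2 lowered and 1 not called of 15 tested. Over all genes 29.1% were raised and 28.7% lowered. The median log2 fold change of the 15 was 1.92, against 0.01 over all genes. The smallest p was that of glutamate-1-semialdehyde aminomutase (TRINITY_DN5113_c0_g2; log2 fold change 3.76, SE 0.11). A porphobilinogen deaminase (TRINITY_DN5868_c1_g3) fell by 2.70 (SE 0.29), with 4.25 ± 1.46 CPM in salt and 27.8 ± 5.64 CPM in control (SD, n = 3 each). Another row of that enzyme name (TRINITY_DN3330_c0_g2) rose by 3.35 (SE 0.19, edgeR adjusted p = 3.41e-05), with 226 ± 25.9 CPM in salt and 22.1 ± 4.66 CPM in control. The row with the highest mean CPM, a coproporphyrinogen oxidase (TRINITY_DN5925_c0_g1), had 1.55 (SE 0.25).

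Downstream, a word-pattern list was made for light-harvesting proteins, which bind the chlorophyll made by the branch. Of 33 rows tested, 27 were raised, none was lowered and 6 were not called by edgeR. Some of these rows share a Trinity cluster, such as TRINITY_DN5940_c0_g1 and TRINITY_DN5940_c0_g2, so the rows need not be separate genes. Over all genes 29.1% were raised and 28.7% lowered. The raised rows include TRINITY_DN3274_c0_g1 (0.82, SE 0.13), named for an inner membrane ALBINO3-like protein and not for a light-harvesting protein. The median log2 fold change of the 33 was 1.09. CP29 (TRINITY_DN4800_c6_g1), a minor antenna protein of photosystem II, had the smallest p, with 242 ± 39.1 CPM in salt and 76.1 ± 12.5 CPM in control (SD, n = 3 each; 1.67, SE 0.18, edgeR adjusted p = 0.000304). The largest rise was that of a row of low count, TRINITY_DN4425_c0_g2, with 8.67 ± 5.59 CPM in salt and 1.85 ± 0.508 CPM in control (2.22, and 1.56 without salt replicate 1). The row with the highest mean CPM, TRINITY_DN5466_c1_g1, had 1.08 (SE 0.35, edgeR adjusted p = 0.0331). It was not called when replicate numbers were a block (adjusted p = 0.0648), without salt replicate 1 (0.101) and without control replicate 3 (0.0546).

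Enzymes of chlorophyll b and chlorophyll breakdown had 10 rows tested, with 3 raised, 3 lowered and 4 not called (median log2 fold change 0.10). These shares are close to the 29.1% raised and 28.7% lowered over all genes. Of the raised rows, 2 are the chlorophyllide a oxygenase rows above. A pheophorbide a oxygenase (TRINITY_DN5359_c1_g1), which opens the chlorophyll ring during breakdown, had the smallest p and the largest fall, with 2.13 ± 0.842 CPM in salt and 81.3 ± 23.4 CPM in control (SD, n = 3 each; -5.25 on the log2 scale, SE 0.38, edgeR adjusted p = 7.51e-05). The list holds 3 more rows of this enzyme name, given here after their values were seen, and none of them was lowered. TRINITY_DN5267_c1_g1 was the third raised row (0.33, edgeR adjusted p = 0.0300), but was not called with replicate numbers as a block (0.0519), with no filter (0.0615), or without any 1 library other than control replicate 1 (0.0610 to 0.0761). TRINITY_DN4552_c2_g10 had 0.37 (edgeR adjusted p = 0.0638) and TRINITY_DN5973_c3_g1 had -0.08 (edgeR adjusted p = 0.606). The row with the highest mean CPM, chlorophyll b reductase (TRINITY_DN3703_c0_g1), which starts the conversion of chlorophyll b to a, fell as well, with 165 ± 5.73 CPM in salt (SD, n = 3) and 511, 289 and 295 CPM in control (-1.15, SE 0.23, edgeR adjusted p = 0.00518). Another row named chlorophyll b reductase (TRINITY_DN5252_c0_g6), given after its value was seen, was not called (0.28, SE 0.32, edgeR adjusted p = 0.481). A row named chlorophyllase (TRINITY_DN3216_c0_g2), an enzyme that removes the tail, was the remaining lowered row (-1.05, SE 0.16) and was named after its value was seen.

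Across the 6 libraries, ChlH was compared with 3001 other genes of at least median abundance and with a functional description, by Pearson's r of log2 CPM. The r was highest for a porphobilinogen deaminase (TRINITY_DN3330_c0_g2, r = 0.9999), a geranylgeranyl pyrophosphate synthase (TRINITY_DN5349_c1_g1, r = 0.9996) and outer envelope protein 64 of the chloroplast (TRINITY_DN5538_c0_g1, r = 0.9996). Their log2 fold changes were 3.35, 1.47 and 0.74. Among the 7 genes, r with ChlH was 0.998 for ChlD, 0.996 for ChlI, 0.987 for ChlG and 0.985 for POR, and -0.86 for second H and -0.91 for ferrochelatase. The 6 points share 2 groups, so r here mostly follows the difference between them, and 137 of the 3001 genes had an r over 0.99.

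For ferrochelatase, r was highest for regulatory subunits of protein phosphatase 2A (TRINITY_DN5509_c3_g2, 0.997) and protein phosphatase 4 (TRINITY_DN5746_c3_g5, 0.993), and for an aminocyclopropane carboxylate synthase (TRINITY_DN5187_c4_g1, 0.993). All 3 fell, by 0.82, 0.47 and 1.22 on the log2 scale, the call of the second being lost by library totals (edgeR adjusted p = 0.0807). With ferrochelatase, 7 of the 3001 genes had an r over 0.99.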

How the data were processed

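TRIzol was used to extract RNA from the 6 samples, per the labels' protocols. The labels name both Illumina and Proton sequencing, and which applies is not settled here. Per the file headers, the deposited values are read counts and FPKM by library for each assembled gene, beside the authors' log2 fold changes and p-values. Aligner, counter and the authors' test: not given in the sources used here. Identifiers carry the Trinity prefix, so genes are rows of a de novo assembly.

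The counts went into edgeR 4.0.16 (R 4.3.3) with all genes (TMM, filterByExpr with a minimum count of 10, quasi-likelihood fit on condition, Benjamini-Hochberg adjustment at 0.05). The fit was tested on simulated data. The SE is the size of the log2 fold change over the root of F. Levels are TMM-scaled CPM. FPKM was used to compare genes, for implied lengths, for ratios within a library and, with 0.1 added, for log2 differences between groups. Implied length is the count over FPKM and library total, divided by the library's median shift over genes with at least 50 counts in every library.

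The 7 genes, the word-pattern lists and the naming rule were chosen with earlier results of these data known. All 7 genes and the tested rows sharing their enzyme name were named. The rule also covered every tested row of their Trinity clusters, and in departure from it most of these, with unrelated or no names, are given only as counts. From each list came the smallest p, the most abundant row, the largest rise and the largest fall, or all rows of lists with 8 or fewer tested. One pattern that also matched porphobilinogen was corrected after the matches were seen. For ChlH and ferrochelatase the 3 genes with the highest r were named. Deviations from group means of libraries with the same replicate number correlated across genes at 0.37, 0.16 and 0.22, which met the criterion for pairing (over 0.1 each). Salt replicate 3 correlated more with control replicate 2 (0.29), and salt replicate 2 correlated with control replicate 3 at 0.10. No label pairs the libraries, and what the numbers stand for is not stated. Pairing by number is thus uncertain, most of all for replicates 2 and 3. Replicates of a group differed by a chi-square per gene of 5.23 or more, so none was counted as a duplicate. The lowest value was that of control replicates 2 and 3 (r of log2 CPM 0.992). Control replicate 1 differed from these by 173 and 147, and the salt pairs differed by 33.4 to 58.5. Alternatives were other scalings and filters, DESeq2 1.42.0, a replicate block, a batch term, each library left out, replicates 2 and 3 alone, a 2-fold minimum and summed rows.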

Additional observations from a re-analysis of the deposited data

How the results depend on the processing

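All 7 genes kept their direction and stayed called under all 14 alternatives of scaling, filter, test, block, batch term and left-out libraries. With each library left out, log2 fold changes ranged from 3.47 to 3.83 for ChlH, 2.75 to 3.04 for ChlI, 1.78 to 1.98 for ChlD, 2.80 to 2.98 for POR, 3.13 to 3.96 for ChlG, -0.72 to -0.50 for second H and -0.71 to -0.54 for ferrochelatase, and 5518 to 7538 genes were called in all. With the replicate block 6846 genes were called, against 6616 without it, and no call of the 7 changed. A 2-fold minimum left 3834 calls, 1814 raised and 2020 lowered, and 0 lowered genes of the 7, since second H (-0.64) and ferrochelatase (-0.65) changed by less. Summing all rows of a Trinity cluster turned POR to -0.23 (edgeR adjusted p = 0.168), its cluster holding 4 lowered rows of other or no names. It also took ChlG to 0.49, ChlI to 0.70, ChlD to 1.07 and ferrochelatase to -0.35, all still called, and left ChlH at 3.61 and second H at -0.65. Summing rows named subunit H turned second H to 2.33, because ChlH is then included. From FPKM plus 0.1, the log2 ratio to ferrochelatase differed between groups by 3.80 for ChlH and 2.17 for ChlD, against 4.29 and 2.53 from counts, with the implied lengths above. Among other named genes only uncalled ones changed sign: COX15 had 0.12 by library totals and 0.0022 with replicates 2 and 3 alone, and ranged from -0.139 to 0.0452 with a library left out. Sirohydrochlorin ferrochelatase had -0.0258 with replicates 2 and 3 alone and ranged from -0.0163 to 0.137. Rows left untested for low counts, among them the light-independent reductase rows and the light-harvesting rows beyond the 33 tested of 48, could not be compared at this depth.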

Other observations

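A row named for FLUORESCENT IN BLUE LIGHT (TRINITY_DN3174_c0_g2) was in none of the lists and was found after the values were seen. In Arabidopsis this protein restrains glutamyl-tRNA reductase, the first committed step towards both branches. It had 72.5 ± 13.7 CPM in salt and 8.52 ± 0.848 CPM in control (SD, n = 3 each). The groups did not overlap, and the log2 fold change was 3.09 (SE 0.18, edgeR adjusted p = 3.67e-05). Its call held with every library left out in turn.

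A row named for a TspO/MBR-related protein (TRINITY_DN4693_c0_g8), of a membrane protein family known to bind tetrapyrroles, shares the Trinity cluster of ChlD. It had 141, 152 and 156 CPM in salt and 85.9, 83.7 and 78.0 CPM in control (log2 fold change 0.86, SE 0.10, edgeR adjusted p = 0.000458). Beside ChlD, that cluster holds 7 tested rows, this one included: 3 raised, 1 lowered and 3 not called. A ribulose-phosphate epimerase row among them (TRINITY_DN4693_c0_g7), an enzyme of the Calvin cycle, rose by 1.78 (SE 0.11). The cluster of ferrochelatase holds 4 further tested rows, of which 1 rose, 1 fell and 2 were not called. That of ChlI holds 11 (4 raised, 0 lowered by edgeR and 7 not called), that of POR 7 (1 raised, 4 lowered, 2 not called) and that of ChlG 3 (1 raised, 1 lowered, 1 not called).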
